A study of Saccharomyces cerevisiae with 12 samples.

Results

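Budding yeast lacking CHO2 (cho2) was compared with wild type (WT) 3 h after a switch to a minimal lactate medium. The comparison rests on 4 of the 12 RNA-seq libraries of the study, 2 for each strain. It was run across the 6546 of 6685 listed genes that reached a normalised value of 10 in 2 or more libraries. Both strains were CEN.PK and MAT a, and the mutant carried cho2-delta::KanMX, in which a drug resistance cassette replaces the gene. Cells grew in YPL, which is yeast extract (1%), peptone (2%) and lactate (2%), to an A600 of 1.0. They were then washed and moved to SL, which is nitrogen base without amino acids (0.17%), ammonium sulfate (0.5%) and lactate (2%). The other 8 libraries, cho2 and WT at 1 h in SL and in YPL before the switch, with 2 for each, entered the fit and serve to show where the 3 h difference stands apart. The libraries of a group are biological replicates by the series text. Whether each was its own culture, and whether the mutant was more than 1 clone, is not said. The p-values therefore measure the spread between libraries within groups, pooled over all 12, which may be technical.

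CHO2 encodes the methyltransferase that puts the first methyl group on phosphatidylethanolamine, and OPI3 encodes the enzyme that adds the rest to give phosphatidylcholine. Each methyl group comes from S-adenosylmethionine (SAM), and the by-product S-adenosylhomocysteine is broken down to homocysteine, from which cells can make cysteine. Yeast builds SAM from sulfate through sulfide, homocysteine and methionine. Most genes of this route are switched on by Met4, an activator that is brought to promoters by Cbf1 and by Met31 or Met32. The title of the series asks about a metabolic role of phospholipid and histone methylation.

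Values below are the deposited normalised reads after a further rescaling of each library, and differences are log2 of cho2 over WT after adding 1, with the standard error from limma. The threshold was an adjusted p (Benjamini-Hochberg, over all tested genes) below 0.05. The 3 h libraries held 9.52 M and 11.9 M reads in cho2 cells, against 9.28 M and 3.17 M in WT cells (M for mega), and the other 8 held 9.17 M to 12.5 M. As deposited, the second cho2 library lay low, where the median gene deviated from the all-library mean by -0.34 on the log2 scale. After rescaling, every library lay within -0.02 and 0.02. Replicates differed most at 3 h, while the fit pools the spread of all 6 groups. The ± values at 3 h, and the p-values, may therefore be too small. Across genes the SD of the log2 difference between the libraries of a group was 0.43 in cho2 and 0.44 in WT at 3 h, against 0.18 to 0.31 in the other 4 groups.

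CHO2 (YGR157W), the deleted gene, stood at 3.80 and 7.65 in the cho2 libraries, against 2619 and 2097 in the WT libraries. The cho2 libraries held 4 and 9 reads of it. The higher cho2 value was 0.365% of the lower WT value. On the same chromosome arm, the neighbours PTI1 and MTR3 did not pass, at -0.19 ± 0.15 and -0.29 ± 0.12. Of the next genes out, NSR1 did not pass at -0.55 ± 0.15 (limma adjusted p = 0.0545), and CYS4 passed and is described with the sulfur genes.

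At 3 h in SL, cho2 cells held less RNA than WT cells of genes that bring in and assimilate sulfur. The same went for most genes listed under daughter cell separation. In turn the cho2 cells held more RNA of a smaller and more mixed set that included HO, SPS100, ARG1, ARG4 and INO1. In all 356 genes passed, which is 5.44% of those tested, 120 of them higher in cho2 (1.83%) and 236 lower (3.61%). An unadjusted p under 0.05 was found for 1549 genes. Most differences were modest, with a median of 0.64 among the higher genes and -0.64 among the lower, and only 21 rose and 20 fell by 1 or more on the log2 scale. In all 356 the 2 cho2 values lay on one side of the 2 WT values, as they did in 47.1% of all tested genes. Of the 356, 7 have a near-identical copy and 10 overlap another annotated gene, so that reads could be shared.

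The number that passed depended on how the spread was estimated. With a weight of 0.64 for each 3 h library and 1.25 for each of the others, an alternative chosen after seeing the data, 50 genes passed (0.764%), 17 higher (0.26%) and 33 lower (0.504%), and all 50 were among the 356. Below, the lower weight means these weights, and calls that held with it are marked in most places. CHA1, OYE2, RPN10, FMO1 and ARE1 also held with it and are not marked again. With the 4 libraries fitted alone 11 passed, and those were CHO2, JLP1, CHA1, AGP3, OYE2, MUP1, HPF1, PDC6, CYS3, SPS100 and BNA1. Without the first cho2 library at 3 h 75 passed, 58 of them among the 356. Without any one of the 4 cho2 libraries from 1 h or YPL, which are not part of the comparison but feed the spread, 180 to 198 passed. The rule by which genes are named took in 256 genes, of which 110 passed. Of the 110, 107 also passed with edgeR and 110 with DESeq2 on recovered reads, 31 with the lower weight, 35 without the first and 65 without the second cho2 library at 3 h, and 65 and 83 without the first and second WT library. None changed direction under any alternative run. Without rescaling, the higher share of the calls was 17.8% (40 higher, 185 lower), against 33.7% here and 38.0% and 40.8% with 2 other scalings (136 higher and 222 lower with median-of-ratios, 131 and 190 with quantile normalization).

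**Figure D1:**
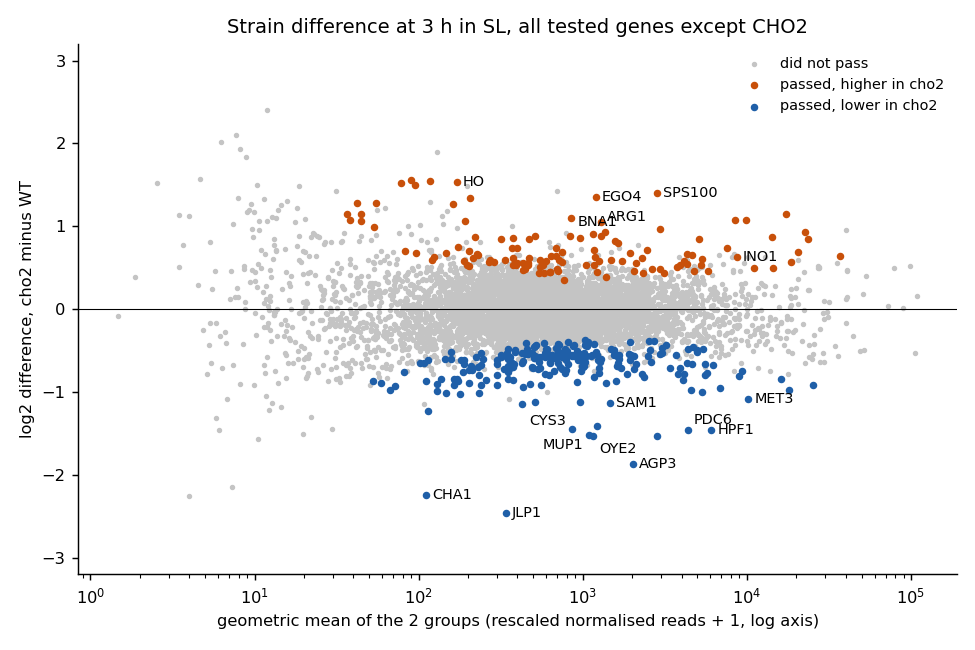
Log2 difference, cho2 minus WT, at 3 h in SL against the geometric mean level of the 2 groups (log axis), 1 point for each tested gene, with CHO2 left out for scale. The 120 genes that passed higher are orange and the 236 that passed lower are blue, and among the genes that passed the differences run to -2.46 (JLP1) below 0 and to 1.56 (COS12) above it. Grey points of genes that did not pass lie as high as 2.40.

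**Figure D2:**
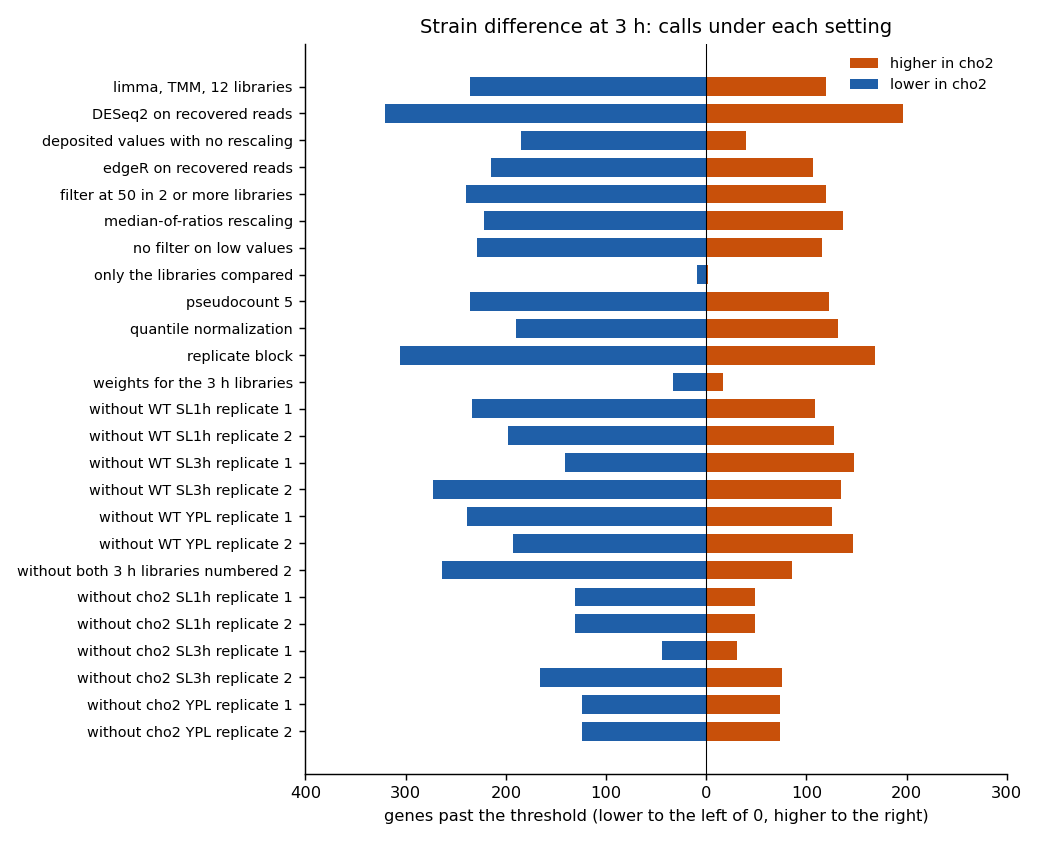
Genes past the threshold at 3 h under each setting, lower in cho2 as blue bars to the left of 0 and higher in cho2 as orange bars to the right. The top bar pair is the fit reported here (236 and 120), and the shortest are the 4 libraries alone (9 and 2).

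Among the deepest falls were genes that let cells take sulfur from other compounds. JLP1 (YLL057C), for a dioxygenase that frees sulfite from sulfonates, stood at 166 and 122 in cho2, against 838 and 742 in WT. Both cho2 libraries lay far below both WT libraries, a difference of -2.46 ± 0.21 (limma adjusted p = 0.000134). AGP3 (YFL055W), an amino acid permease gene, stood at 1045 and 1071 in cho2, against 3913 and 3822 in WT. Its libraries agreed closely within each strain, and the difference was -1.87 ± 0.10 (limma adjusted p = 2.17e-06). BDS1, for a sulfatase that releases sulfate from alkyl sulfates, stood at 1573 and 1698 in cho2, against 3724 and 5975 in WT, where the libraries differed more from each other. MUP1 (YGR055W), the high-affinity methionine permease gene, stood at 619 and 666 in cho2, against 2097 and 1613 in WT. PDC6, for a pyruvate decarboxylase poor in sulfur amino acids, stood at 2464 and 2802 in cho2, against 6758 and 7716 in WT. The groups did not overlap for BDS1, MUP1 or PDC6, at -1.53 ± 0.18, -1.52 ± 0.16 and -1.46 ± 0.12. Of the 9 tested genes listed for uptake and scavenging of sulfur compounds 6 fell and 0 rose. The median was -1.46, against -0.02 over all tested genes. PDC6 was counted in this list although it encodes a pyruvate decarboxylase, and the list median is its value. The sixth was MMP1, for the S-methylmethionine permease, at -0.78 ± 0.14, a gene outside the naming rule and given after its values were seen. With the lower weight 5 of the 6 still passed.

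**Figure D3:**
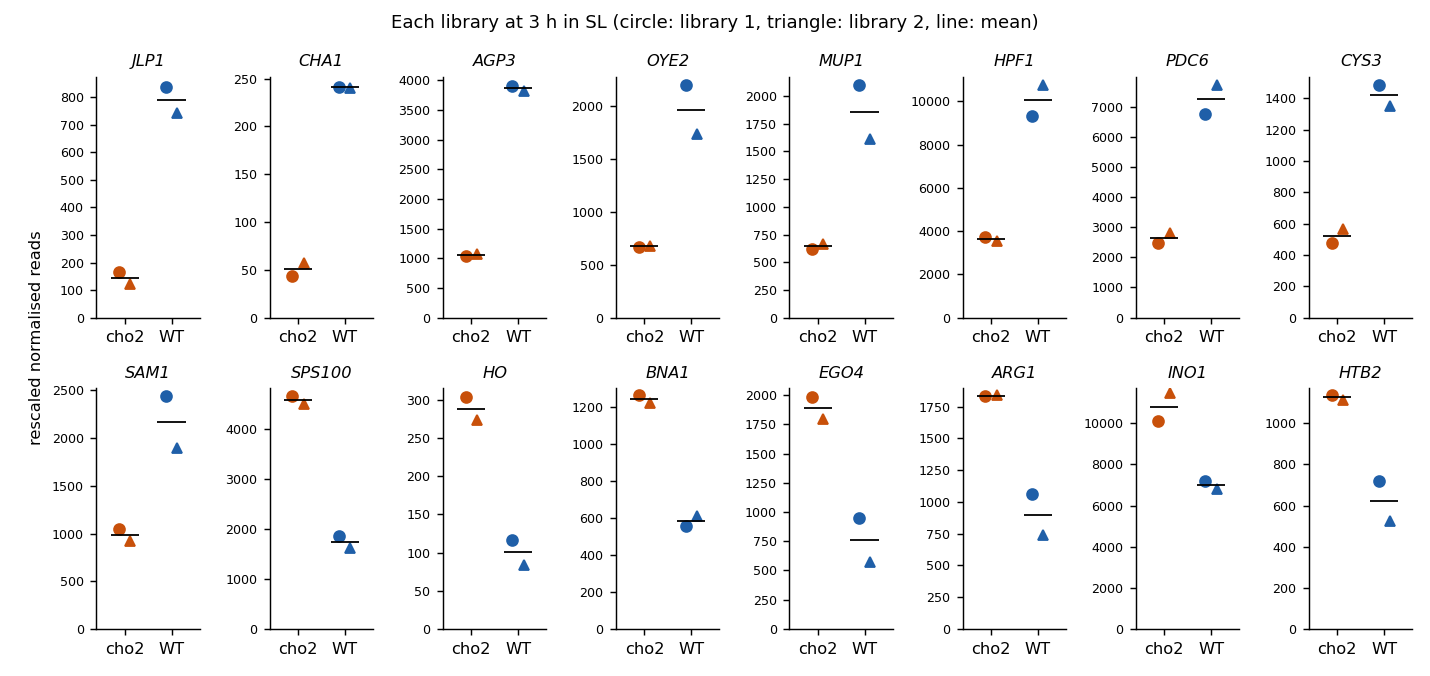
Rescaled normalised reads of 16 genes in each 3 h library, cho2 left and WT right, with circles for library 1, triangles for library 2 and a line at the mean. All axes start at 0, and the groups do not overlap in any panel.

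In the sulfate route itself, 9 of 10 genes fell and 0 rose, with a median of -0.80. MET3 (YJR010W), for the ATP sulfurylase that activates sulfate, stood at 7147 and 6798 in cho2, against 13946 and 15728 in WT. Both cho2 libraries held less than the lower WT library, a difference of -1.09 ± 0.13 (limma adjusted p = 0.00152). MET10, for a sulfite reductase subunit, stood at 4885 and 5021 in cho2, against 9926 and 9242 in WT, and fell by 0.95 on the log2 scale. MET1 and MET8, whose enzymes make the siroheme cofactor of sulfite reductase, differed by -0.87 ± 0.11 and -0.90 ± 0.15. The member that did not pass was MET16, for the reductase of activated sulfate, at 2252 and 1867 in cho2 and 2051 and 2889.6 in WT, where the groups overlap (it is named after its values were seen). Summed over the list, the cho2 libraries held 41701 and 41175, against 74072 and 72992 in the WT libraries. With the lower weight 3 of the 9 passed.

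In the list for homocysteine and methionine synthesis, 5 of 8 genes fell and 0 rose, with a median of -0.51. The members that did not pass were HOM2, HOM3 and HOM6, for steps from aspartate to homoserine, named after their values were seen. MET17, for the sulfhydrylase that makes homocysteine, stood at 18447 and 18278 in cho2, against 39390.0 and 30283 in WT (-0.91 ± 0.18). It overlaps the reading frame YLR302C, and the use of strand in counting is not given in the sources used here. MET6, for methionine synthase, stood at 12899 and 12917 in cho2, against 27596 and 23529.7 in WT. Its difference was -0.98 ± 0.13 (limma adjusted p = 0.0029). MET2, for the acetyltransferase that prepares homoserine, and MET13, for a methylenetetrahydrofolate reductase, differed by -0.71 ± 0.14 and -0.54 ± 0.13. The fifth, MET12, for the other such reductase, stood at -0.43 ± 0.10 and was named after its values were seen. Of the 5, MET6 alone passed with the lower weight.

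Of the 7 genes for making and recycling SAM, both SAM synthetase genes fell and 0 rose, with a median of -0.33. SAM1 (YLR180W) stood at 1045 and 927 in cho2, against 2445 and 1898 in WT, so that the groups were well apart (-1.13 ± 0.13, limma adjusted p = 0.00088). SAM2 stood at 2798 and 3281 in cho2, against 5473 and 4467 in WT, a smaller difference of -0.71 ± 0.18 that did not pass with edgeR (adjusted p = 0.052) or with the lower weight. SAH1, for the hydrolase that clears S-adenosylhomocysteine, did not pass at -0.59 ± 0.17 (limma adjusted p = 0.0631). SAM4, for a methyltransferase that makes methionine from homocysteine and SAM, stood at 0.42 ± 0.12 and did not pass either.

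Downstream, 5 of 15 genes for transsulfuration and glutathione fell and 0 rose, with a median of -0.26. CYS3, for cystathionine gamma-lyase, which makes cysteine, stood at 474 and 566 in cho2, against 1484 and 1351 in WT. This was the clearest member, at -1.45 ± 0.14 (limma adjusted p = 0.000529), and it alone passed with the lower weight. CYS4, for cystathionine beta-synthase, STR3, for cystathionine beta-lyase, and DUG3, for a subunit of a glutathione-degrading complex, differed by -0.67 ± 0.16, -0.54 ± 0.14 and -0.66 ± 0.11. The fifth, ECM38, for gamma-glutamyltransferase, stood at -0.40 ± 0.11 and was named after its values were seen. GSH1, for the first step of glutathione synthesis, did not pass at -0.26 ± 0.14. FMO1, for a monooxygenase that oxidises thiols, stood at 295 and 277 in cho2, against 569 and 704 in WT (-1.14 ± 0.14). Of the 6 regulators of the pathway, MET28, for a cofactor of Met4, fell by 0.70 on the log2 scale and the other 5 did not pass, with a list median of -0.08.

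Promoters of the sulfur genes were read to show the binding letters known for their regulators. The windows run from 101 to 400 bases before the start codon in release R64 of the S288C genome, which is neither the authors' build (sacCer2) nor the strain used. The motif CACGTG, the site of Cbf1 and also of Pho4, was searched on both strands, as was AACTGTGG, the core of the Met31 and Met32 site, and the motifs do not overlap each other. CACGTG was found in 44.4% of the 27 windows of lower sulfur-list genes, 10.9% of the 221 of all lower genes, 4.39% of the 114 of all higher genes and 4.59% of the 5901 of all tested genes. AACTGTGG was found in 40.7%, 7.69%, 3.51% and 1.22% of the same sets. The Gcn4 letters TGACTC were found in 29.6%, 16.3%, 16.7% and 8.46%, so that lower and higher genes held them about equally often. CATGTGAA, for Ino2 and Ino4, was in 1 of the 27 windows of lower sulfur-list genes and in 1.81%, 2.63% and 1.10% of the other sets in the same order. AGGGG, for Msn2 and Msn4, was found in 11.1%, 24.0%, 29.8% and 23.6% of the 4 sets. The sets are nested, as the 27 windows are among the 221. They make up 12 of the 24 lower windows with CACGTG and 11 of the 17 with AACTGTGG. The 27 belong to a route mostly switched on by Met4, so their share is no independent result. The share among sulfur-list genes that did not pass was not taken. The motifs and sets were chosen with these results known, and a match is a string of letters, not a measured site. The 5 windows shown were picked after their motifs were known, 4 to show the motifs in place and JLP1 as a window with none, with CACGTG and AACTGTGG in capitals on either strand. MET3 lies at chrX:455839-456138 (+), MUP1 at chrVII:599017-599316 (+), SAM1 at chrXII:514862-515161 (+), AGP3 at chrVI:16604-16903 (+) and JLP1 at chrXII:27095-27394 (-), none of them inside another annotated gene.
MET3: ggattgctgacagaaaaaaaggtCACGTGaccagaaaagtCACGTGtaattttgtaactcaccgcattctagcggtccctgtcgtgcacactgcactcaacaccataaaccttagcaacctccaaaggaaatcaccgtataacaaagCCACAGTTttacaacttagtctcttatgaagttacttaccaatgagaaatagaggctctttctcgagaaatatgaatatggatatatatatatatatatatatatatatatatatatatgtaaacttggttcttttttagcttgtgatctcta
MUP1: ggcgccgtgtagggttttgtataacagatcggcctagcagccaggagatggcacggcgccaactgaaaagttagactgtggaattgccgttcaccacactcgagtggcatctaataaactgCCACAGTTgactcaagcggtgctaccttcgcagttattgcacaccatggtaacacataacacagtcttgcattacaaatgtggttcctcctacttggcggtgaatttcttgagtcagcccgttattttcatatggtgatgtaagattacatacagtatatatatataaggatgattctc
SAM1: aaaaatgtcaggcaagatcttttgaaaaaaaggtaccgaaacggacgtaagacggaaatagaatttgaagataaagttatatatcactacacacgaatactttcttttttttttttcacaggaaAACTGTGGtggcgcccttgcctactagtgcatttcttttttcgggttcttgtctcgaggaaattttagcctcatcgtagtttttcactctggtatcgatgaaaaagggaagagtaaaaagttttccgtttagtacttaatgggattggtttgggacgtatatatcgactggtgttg
AGP3: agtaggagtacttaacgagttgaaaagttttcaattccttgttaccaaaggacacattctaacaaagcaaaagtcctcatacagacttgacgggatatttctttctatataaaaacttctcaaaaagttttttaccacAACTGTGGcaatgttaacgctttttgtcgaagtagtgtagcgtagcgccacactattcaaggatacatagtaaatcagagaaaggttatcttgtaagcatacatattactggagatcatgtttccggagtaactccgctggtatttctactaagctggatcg
JLP1: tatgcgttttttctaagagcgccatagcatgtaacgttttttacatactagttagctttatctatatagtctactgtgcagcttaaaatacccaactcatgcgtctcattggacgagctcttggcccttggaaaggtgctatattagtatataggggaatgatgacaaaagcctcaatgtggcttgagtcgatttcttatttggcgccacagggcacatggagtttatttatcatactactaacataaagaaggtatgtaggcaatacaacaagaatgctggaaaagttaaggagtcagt
MET3 holds CACGTG at 2 places and AACTGTGG at 1, read here from its other strand as in MUP1. SAM1 and AGP3 hold AACTGTGG at 1 place each. JLP1 holds neither in this window, and neither do BDS1 and PDC6, whose windows are not shown and whose falls were larger than that of SAM1. Only the exact letters were searched, so shorter or near forms of these sites were not counted. The windows of JLP1 and BDS1 do hold CCACAG, which is part of AACTGTGG read from its other strand. CYS3 holds CACGTG at 1 place and MET10 at 2, in windows that overlap another annotated gene.

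Some genes of purine and one-carbon synthesis fell too. In purine synthesis 5 of 14 genes fell, 0 rose and all 14 had a difference below 0, with a median of -0.58. ADE57 (the gene for a bifunctional enzyme, also written ADE5,7) stood at 1597 and 1928 in cho2, against 3682 and 2593 in WT. ADE4, for the committing step, ADE1 and GUA1, for the last step to GMP, differed by -0.74 ± 0.15, -0.72 ± 0.15 and -0.61 ± 0.12. None of the 5 passed with the lower weight. In one-carbon metabolism 3 of 10 fell and 0 rose, with a median of -0.33. SHM2, for the cytosolic serine hydroxymethyltransferase, stood at 3006 and 3248 in cho2, against 5966 and 4865 in WT (-0.79 ± 0.14). ADE3, for a trifunctional folate enzyme, and GCV2, for a subunit of glycine decarboxylase, differed by -0.79 ± 0.10 and -0.56 ± 0.10, and ADE3 alone passed with the lower weight.

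Of 11 genes for daughter cell separation 9 fell and 0 rose, with a median of -0.57. Several of them act at the end of division, when the daughter cell digests the septum. The list also takes in genes with other roles, such as the repressor gene ASH1. SUN4, for a cell wall glucanase-like protein, stood at 269.7 and 352 in cho2, against 548 and 639 in WT. DSE4, for a secreted glucanase, stood at 967 and 942 in cho2, against 1515 and 1743 in WT. Both differences held with the lower weight, at -0.94 ± 0.15 and -0.77 ± 0.10, and they were the 2 of the 9 that did. SCW11, for a glucanase-like wall protein, and DSE3 differed by -0.71 ± 0.14 and -0.53 ± 0.10. The 2 that did not pass were DSE2, at -0.26 ± 0.16, and ASH1, for a daughter-specific repressor, at -0.30 ± 0.11, both named after their values were seen. Of 21 genes for cyclins and cell cycle entry 0 passed limma, 0 edgeR and 0 DESeq2. Their median was -0.04, 6 had an unadjusted p below 0.05, and CLN3, for a G1 cyclin, stood at -0.28 ± 0.16.

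Other wall, metal and phosphate genes fell in smaller numbers. HPF1, for a cell wall mannoprotein, stood at 3719 and 3541 in cho2, against 9340.1 and 10759.6 in WT, well apart at -1.47 ± 0.16 (limma adjusted p = 0.000786). CWP1, for another mannoprotein, stood at 611 and 855 in cho2, against 2602 and 1423 in WT, where the WT libraries differed widely (-1.41 ± 0.27). CWP1 was 1 of 3 in a list of 20 cell wall protein genes that fell, beside PIR1 (-0.77 ± 0.15) and PST1 (-0.67 ± 0.13), and the list median was -0.28. In the iron regulon 4 of 23 fell and 0 rose, with a median of -0.26, and these were FRE2, FTR1, ARN1 and FET3, for a ferric reductase, a permease, a siderophore transporter and a ferroxidase, at -0.87 ± 0.17, -0.82 ± 0.18, -0.58 ± 0.14 and -0.55 ± 0.12. In the phosphate regulon 3 of 19 fell, with a median of -0.24. The largest of these falls was in PHO84, for the high-affinity phosphate transporter, at 3758 and 3713 in cho2, against 8556 and 6495 in WT. PHO84 overlaps a noncoding gene (YNCM0001W). With the lower weight 0 genes of these 3 lists passed, and HPF1, which is in none of them, did.

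Among amino acid genes the directions were mixed. CHA1, for the serine and threonine deaminase, stood at 43.7 and 57.0 in cho2, against 242 and 241 in WT. The WT libraries were nearly equal and the difference was -2.25 ± 0.25 (limma adjusted p = 0.000863). In lysine synthesis 3 of 8 genes fell and 0 rose, with a median of -0.42, and these were LYS4 at -0.69 ± 0.12 and the near-identical LYS20 and LYS21, whose reads could be shared, at -0.86 ± 0.18 and -0.57 ± 0.12. In arginine synthesis 2 of 10 rose and 0 fell, with a median of 0.21. ARG1, for argininosuccinate synthetase, stood at 1836 and 1837 in cho2, against 1059 and 737 in WT (1.06 ± 0.16). ARG4, for the lyase of the next step, stood at 4030.1 and 4209 in cho2, against 2356 and 1879.9 in WT (0.97 ± 0.14). Both arginine genes passed with the lower weight, and 0 of the lysine genes did. OYE2, for an NADPH oxidoreductase, stood at 669 and 679 in cho2, against 2196 and 1734 in WT (-1.53 ± 0.14). DSK2, for a ubiquitin-binding shuttle protein, and RPN10, for a ubiquitin receptor of the proteasome, differed by -1.12 ± 0.22 and -0.90 ± 0.11, while the other 32 of 33 proteasome genes did not pass. SHR5, for a subunit of a palmitoyltransferase, differed by -1.23 ± 0.22.

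The rises had no list in which most members passed. HO, for the endonuclease of mating-type switching, stood at 304 and 273 in cho2, against 117 and 83.2 in WT (1.54 ± 0.22, limma adjusted p = 0.004). SPS100, a gene of spore wall maturation, stood at 4663 and 4509.6 in cho2, against 1857 and 1624 in WT (1.40 ± 0.15, limma adjusted p = 0.000632), and it overlaps the noncoding SUT169. In the list of 13 genes for meiosis and the spore wall 2 rose and 0 fell. The 2 were SPS100 and HO, which was counted there although its role is in mating-type switching. The septin genes SPR3 and SPR28, known from sporulation, differed by 1.07 ± 0.24 and 1.06 ± 0.22. BNA1, for an enzyme of NAD synthesis from tryptophan, stood at 1265 and 1224 in cho2, against 554 and 609 in WT (1.10 ± 0.12). EGO4 stood at 1987 and 1793 in cho2, against 949 and 570.2 in WT, where the libraries differed more (1.36 ± 0.19). COS12, of the subtelomeric COS family, and DFP4 were low, at 175 and 127 and 158 and 156 in cho2, against 64.4 and 38.6 and 63.4 and 47.5 in WT. They differed by 1.56 ± 0.26 and 1.50 ± 0.25. IZH4, of a family linked to zinc, differed by 1.34 ± 0.26, MTC7 by 1.07 ± 0.19, DGR1 by 1.15 ± 0.28 and TSC3, for a stimulator of serine palmitoyltransferase, by 0.93 ± 0.21. Of these rises HO, SPS100, BNA1, EGO4, COS12, ARG1 and ARG4 passed with the lower weight, and SPR3, SPR28, DFP4, IZH4, MTC7, DGR1 and TSC3 did not.

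In the general stress list 4 of 18 genes rose and 0 fell, with a median of 0.15. SIP18, for a protein of desiccation tolerance, stood at 20037 and 32147 in cho2, against 10394 and 12529.6 in WT, and its second cho2 library was much the higher (1.15 ± 0.29). SPG4, DDR48 and GRX1, for a glutaredoxin, differed by 0.93 ± 0.19, 0.74 ± 0.15 and 0.51 ± 0.12. Of 36 genes of the respiratory chain and ATP synthase 3 rose and 0 fell, with a median of 0.21, namely COX9, QCR6 and QCR7 at 0.49 ± 0.11, 0.67 ± 0.16 and 0.53 ± 0.13. Of 72 mitochondrial ribosomal protein genes 3 rose and 1 fell, with a median of 0.21, where 1.83% of all tested genes rose and 3.61% fell. Of the 72, 53 had a difference above 0 and 26 an unadjusted p below 0.05. Over all 6546 tested genes these counts were 3040 and 1549. With edgeR 5 of the 72 passed and with DESeq2 9. Of 81 ribosomal protein genes of the large cytosolic subunit 0 passed limma, 0 edgeR and 5 DESeq2, and 8 had an unadjusted p below 0.05. Of 57 of the small subunit 1 rose, RPS20 at 0.46 ± 0.11, and the medians were -0.02 and 0.02. With the lower weight 0 genes of these 5 lists passed.

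**Figure D4:**
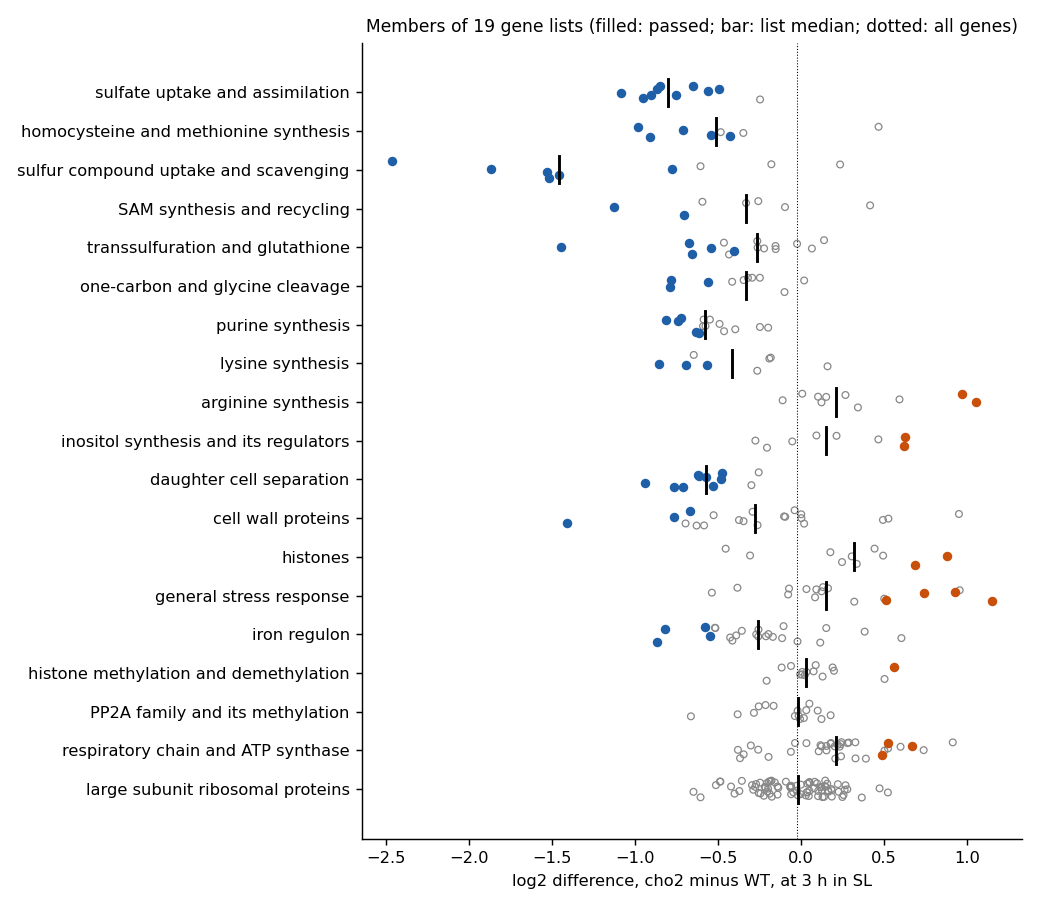
Log2 difference, cho2 minus WT, at 3 h for each tested member of 19 gene lists, filled where the gene passed (blue lower, orange higher) and open where it did not, with a bar at the list median and a dotted line at the median of all tested genes (-0.02). The medians of the sulfur, purine and daughter separation lists lie to the left of the line, with some single members of the sulfur lists to its right, and the median of the large subunit ribosomal proteins lies on it.

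Of 25 genes picked for being near the missing reaction and the question in the title, 2 rose and 6 fell, with a median of -0.06. The 2 are INO1 and HO, and the 6 are CHO2 itself and the sulfur genes SAM1, SAM2, MUP1, MET17 and CYS3. In the methylation route to phosphatidylcholine, CHO2 alone passed of 6 genes. OPI3 stood at 2015 and 2794 in cho2, against 3237 and 2910.4 in WT, and did not pass (-0.37 ± 0.14, limma adjusted p = 0.149). CHO1, for phosphatidylserine synthase, and PSD1, for its decarboxylase, did not pass at 0.33 ± 0.14 and 0.19 ± 0.11. In the Kennedy pathway, the other route to phosphatidylcholine, 1 of 7 genes fell, ECT1, for the ethanolamine branch, at -0.54 ± 0.10. INO1, for inositol-phosphate synthase, a classical gene of phospholipid regulation, stood at 10099.9 and 11458 in cho2, against 7172 and 6780.0 in WT. Both cho2 libraries were higher, by 0.63 ± 0.10 (limma adjusted p = 0.00649), and this held with the lower weight. INO4, for an activator of INO1, rose by 0.62 ± 0.13 and OPI1, for its repressor, did not pass at 0.09 ± 0.17. OLE1, for the fatty acid desaturase, stood at 45407 and 46570.0 in cho2, against 30138 and 28956 in WT (0.64 ± 0.13). ARE1, for a sterol acyltransferase, fell by 1.02 on the log2 scale and overlaps YCR050C.

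Of 15 genes for histone methylation and demethylation 1 rose and 0 fell, SDC1, for a subunit of the Set1 complex, at 0.56 ± 0.14, and the list median was 0.03. The methyltransferase genes SET1, SET2 and DOT1 did not pass, at 0.01 ± 0.12, 0.13 ± 0.13 and -0.01 ± 0.19. The demethylase genes RPH1, GIS1 and JHD2 did not pass either, at -0.21 ± 0.14, 0.19 ± 0.12 and -0.06 ± 0.14. Of 16 genes of the PP2A phosphatases and their methylation 0 passed limma, 0 edgeR and 0 DESeq2. Their median was -0.02, 4 had an unadjusted p below 0.05, and the methyltransferase gene PPM1 stood at -0.04 ± 0.11. Among 10 histone genes 2 rose and 0 fell, with a median of 0.32. HTB2, for histone H2B, stood at 1139 and 1114 in cho2, against 717 and 523 in WT (0.88 ± 0.13), and passed with the lower weight. HHF2, for histone H4, differed by 0.69 ± 0.17 and has the near-identical copy HHF1, at 0.49 ± 0.17.

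Both strains are MAT a by their labels, and genes of both mating types were read as a check. Of 7 a-specific genes 2 rose, MFA1 and MFA2, for the a-factor pheromone, at 0.64 ± 0.15 and 0.90 ± 0.22, and 1 fell, BAR1, for the protease that destroys alpha-factor, at -0.60 ± 0.14. Summed, they stood at 5331 and 4637 in cho2, against 4323 and 3593 in WT. The 4 alpha-specific genes summed to 955 and 868 in cho2, against 858 and 808 in WT, and none of the 4 was at 0. Their directions were split, with 2 differences above 0 and 2 below. STE3, for the a-factor receptor of alpha cells, stood at 323 and 270.4 in cho2, against 154 and 169 in WT (0.87 ± 0.15, limma adjusted p = 0.0114). MF(ALPHA)1 was low, at 33.2 and 27.2 in cho2, against 8.59 and 11.9 in WT, and did not pass (1.48 ± 0.42, limma adjusted p = 0.066). MF(ALPHA)2 was low too and went the other way, at 27.5 and 25.5 in cho2, against 43.0 and 41.6 in WT. It did not pass either (-0.65 ± 0.31, limma adjusted p = 0.223). STE2, for the alpha-factor receptor of a cells, stood at 876 and 920.1 in cho2 and 891 and 846 in WT, with overlapping groups. The part of these mating genes in the other results was not tested. Where a transcript is lower in such bulk samples, fewer cells expressing it and less of it per cell cannot be told apart.

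The most similar comparison is that of the strains at 1 h in SL, where 999 genes passed (15.3%), 528 higher in cho2 (8.07%) and 471 lower (7.2%). It shares no library with the 3 h comparison, although both come from 1 fit and 1 scaling. Of the 356 genes called at 3 h, 126 were also called at 1 h, which is 35.4% of the 3 h calls and 12.6% of the 1 h calls. Of these, 37 were higher and 68 lower at both times, 15 were lower at 3 h and higher at 1 h, and 6 were higher at 3 h and lower at 1 h. Across genes without CHO2 the differences at 3 h and 1 h correlated with r = 0.27, where genes are not independent and share depth and scaling within a library. The difference between the strain effects passed for 322 genes (4.92%), 86 of them among the 3 h calls.

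Many sulfur genes were lower in cho2 at both times, some of them by less at 3 h. In the sulfate list 10 of 10 were lower at 1 h, with a median of -1.21, and the change in effect passed for 3, all towards a smaller fall (1.88% of all tested genes had a called change in this direction). In the scavenging list all 9 were lower at 1 h, with a median of -1.82, and the change passed for 6. MUP1 differed by -3.06 at 1 h, where cho2 held 1076 and 1187, against 10935 and 8101 in WT, and the change to 3 h was 1.54 ± 0.22 (limma adjusted p = 0.00421). SAM1 differed by -2.22 at 1 h and changed by 1.09 ± 0.18 (limma adjusted p = 0.00716). SHM2 stood at 679 and 726 in cho2 at 1 h, against 8587 and 7343 in WT, and its effect changed by 2.71 ± 0.20 (limma adjusted p = 3.66e-05). From 1 h to 3 h the levels of MUP1 and SAM1 dropped in both strains, for MUP1 to 619 and 666 in cho2 and 2097 and 1613 in WT. The level of SHM2 rose in cho2, to 3006 and 3248, and dropped in WT. For JLP1, AGP3 and MET3 the change did not pass, at 0.33 ± 0.29, -0.25 ± 0.14 and 0.21 ± 0.19.

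Other genes passed at 3 h, did not pass at 1 h, and had a difference between the times that itself passed. Of the daughter cell separation genes 0 passed limma at 1 h, 1 edgeR and 0 DESeq2, and 4 had an unadjusted p below 0.05. The list median there was 0.07, and the change in effect passed for 4 of 11, all downward (3.04% of all tested genes had a called change in this direction). SUN4 stood at 554 and 676 in cho2 at 1 h, against 654 and 647 in WT, and its effect changed by -0.85 ± 0.21 (limma adjusted p = 0.0443). DSE4 changed by -0.87 ± 0.14 (limma adjusted p = 0.00692). HPF1 stood at 3192 and 3355 in cho2 at 1 h, against 2102 and 2671 in WT, and its effect changed by -1.93 ± 0.22 (limma adjusted p = 0.00107). HO, OYE2 and CHA1, which did not pass at 1 h, changed by 1.64 ± 0.31, -1.42 ± 0.20 and -2.04 ± 0.36. INO1 was higher at both times. At 1 h it stood at 6008 and 5864 in cho2, against 1142 and 1159 in WT, and its effect changed by -1.74 ± 0.14 to 3 h (limma adjusted p = 5.25e-05). Its WT level at 3 h was above that at 1 h in both libraries.

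Some lists had many genes higher in cho2 at 1 h and 1 or 0 at 3 h. Of the lysine genes 4 of 8 were higher at 1 h, and the effect changed downward for 6, for LYS4 by -1.25 ± 0.17 (limma adjusted p = 0.00341). Of the 15 genes of peroxisomal beta-oxidation 9 were higher at 1 h, while at 3 h 2 fell and the list median was -0.29. SPS19, for a dienoyl-CoA reductase, was among these, at 1593 and 1577 in cho2, against 2339 and 2296 in WT at 3 h, and its effect changed by -1.34 ± 0.14 (limma adjusted p = 0.000634). Of the large subunit ribosomal protein genes 39 of 81 were higher at 1 h, of the small subunit 24 of 57, of ribosome biogenesis 36 of 76 and of lactate use and gluconeogenesis 7 of 11. At 3 h 0, 1, 0 and 0 of these were higher, and the change in effect passed downward for 14, 6, 13 and 5.

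Before the switch, in YPL, 30 genes passed between the strains (0.458%), 24 higher in cho2 (0.367%) and 6 lower (0.0917%). Of the 356 genes called at 3 h 12 were among them, which is 3.37% of the 3 h calls and 40% of the YPL calls. Of these, 9 were lower in cho2 at 3 h and higher in YPL. In the sulfate list 5 of 10 genes were higher in cho2 in YPL, with a median of 0.85. The change in effect from YPL to 3 h passed for 9 of 10, all downward (0.703% of all tested genes). MET3 in YPL stood at 2173 and 2767 in cho2, against 344 and 377 in WT, and its effect changed by -3.85 ± 0.19 to 3 h (limma adjusted p = 1.28e-06). MET17 stood at 8977 and 10570.5 in cho2 in YPL, against 2326 and 2001 in WT, and changed by -3.09 ± 0.26 (limma adjusted p = 7.39e-05). In all, the change from YPL passed for 61 genes (0.932%), 15 of them upward (0.229%), and 51 were among the 3 h calls.

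**Figure D5:**
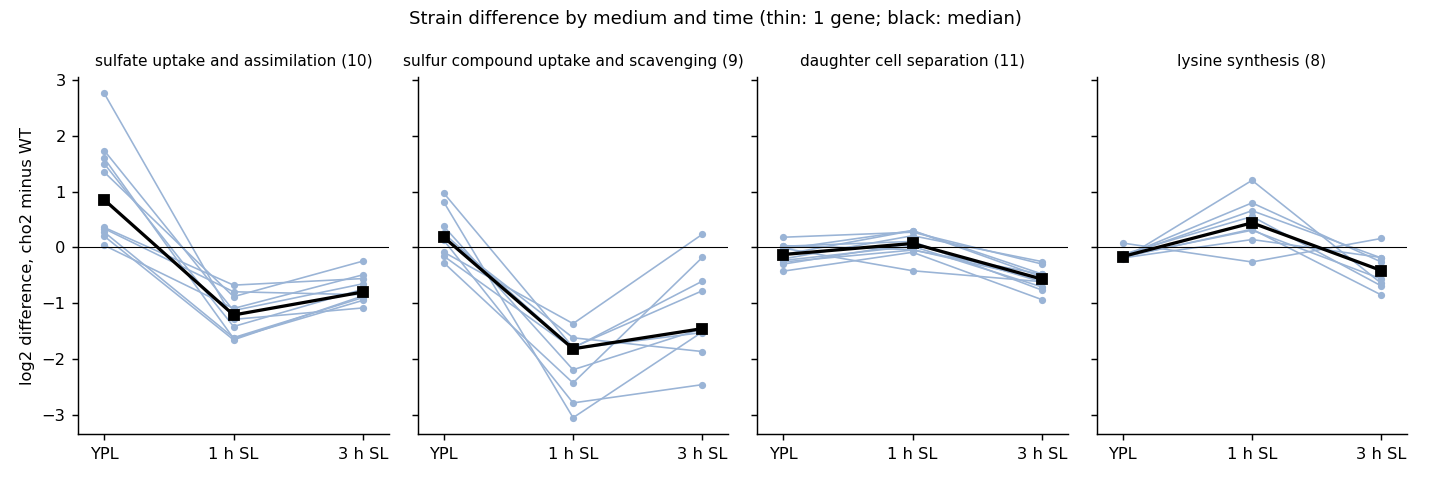
Log2 difference, cho2 minus WT, in YPL and at 1 h and 3 h in SL for the genes of 4 lists, with 1 thin line for each gene and the median in black. The median of the sulfate genes is 0.85 in YPL, -1.21 at 1 h and -0.80 at 3 h, while daughter separation genes lie at 0.07 at 1 h and -0.57 at 3 h.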

How the data were processed

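Poly-A RNA of 12 libraries was sequenced, 2 for each of 6 groups, with a stranded kit, per the labels' protocols. The deposited values are a normalised signal for each gene, read counts that the authors divided by 1 size factor for each library. Bowtie, DESeq and the build sacCer2 are named in the submitters' processing notes, and for their versions, the counter, its annotation and its handling of strand the sources used here give nothing. Each library's values were multiples of a single step (100% whole to within 0.01 reads), and division by it gave the recovered reads used for depth.

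Values were rescaled with TMM factors (edgeR 4.0.16) computed on the deposited values, which were 0.952 and 1.249 for the cho2 and 1.046 and 1.042 for the WT libraries at 3 h. Genes reaching 10 in 2 or more libraries entered limma-trend on log2(value + 1), with limma 3.58.1 under R 4.3.3. All 12 libraries entered 1 fit with 6 group means and 6 residual degrees of freedom, and p-values were adjusted over the 6546 genes. The difference of strain effects between 3 h and 1 h, and between 3 h and YPL, came from the same fit.

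Named by rule were the 15 strongest rises and 15 strongest falls past the threshold, if the higher group averaged 50 or more, the groups did not overlap and a standard symbol exists, up to 4 members of each of 57 gene lists with the smallest adjusted p, all 25 genes near the study's question, the 2 genes on each side of CHO2, and mating-type genes. The members, lists and motifs were chosen with earlier results of these data known, and 1 further motif that was searched is not reported here.

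Names, overlaps and promoters came from the R64 annotation, which matched 6006 of the 6685 listed genes. Copies counted as near-identical when blastn 2.17.0 matched them at 95% identity or more across 50% or more of a gene. Alternatives were no rescaling, median-of-ratios, quantile normalization, a pseudocount of 5, no filter, a filter at 50, the compared libraries alone, a replicate block, edgeR's quasi-likelihood test and DESeq2 1.42.0 on recovered reads, and libraries left out. The scripts were tested before use on simulated data, with 200 of 6546 genes changed in cho2 at 3 h and equal spread in all groups. At 3 h 92.0% of 2-fold and 28.5% of 1.5-fold changes passed, and 4.66% and 8.07% of the calls were false. For the change in effect from 1 h and from YPL, 65.0% and 69.0% of 2-fold changes passed, and 0% of 1.5-fold changes. A gene that did not pass may therefore still differ by such an amount.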

Additional observations from a re-analysis of the deposited data

Results flagged for a closer look

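Of the genes named among the largest changes or near the question, 30 differences of the strain effect between 3 h and another time passed limma, 17 against YPL and 13 against 1 h. Values are the cho2 minus WT log2 difference at 3 h minus the same at the other time, ± SE.

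Against YPL, the effect was lower at 3 h for the sulfur genes JLP1 (-2.59 ± 0.29), AGP3 (-2.05 ± 0.14), BDS1 (-1.37 ± 0.25), MUP1 (-2.33 ± 0.22), PDC6 (-1.84 ± 0.17), CYS3 (-1.71 ± 0.20), SAM1 (-1.05 ± 0.18), FMO1 (-1.17 ± 0.20) and MET17 (-3.09 ± 0.26), with limma adjusted p from 2.39e-05 to 0.0243. It was also lower for CHA1 (-2.74 ± 0.36), HPF1 (-1.62 ± 0.22) and OYE2 (-1.18 ± 0.20) (limma adjusted p 0.00288 to 0.018). It was higher at 3 h for HO (2.26 ± 0.31), IZH4 (1.88 ± 0.36), ARG1 (1.57 ± 0.23), ARG4 (1.20 ± 0.20) and INO1 (0.94 ± 0.14) (limma adjusted p 0.00405 to 0.0304).

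Against 1 h, the effect was lower at 3 h for CHA1 (-2.04 ± 0.36), HPF1 (-1.93 ± 0.22), INO1 (-1.74 ± 0.14), CWP1 (-1.63 ± 0.39), OYE2 (-1.42 ± 0.20), DSK2 (-1.22 ± 0.31) and BNA1 (-0.69 ± 0.17) (limma adjusted p 5.25e-05 to 0.0457). It was higher for HO (1.64 ± 0.31), MUP1 (1.54 ± 0.22), IZH4 (1.46 ± 0.36), SAM1 (1.09 ± 0.18), PSD1 (0.90 ± 0.16) and PDC6 (0.74 ± 0.17) (limma adjusted p 0.00421 to 0.0431). For MUP1, SAM1 and PDC6 this is a smaller fall at 3 h than at 1 h, and for INO1 and BNA1 a smaller rise. PSD1 did not pass at 3 h and was lower in cho2 at 1 h. In each of these genes the 2 strain effects compared rest on 4 libraries each, with none in common.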

How the results depend on the processing

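The 356 calls at 3 h (120 higher, 236 lower) fell to 225 on deposited values with no rescaling (40 higher), to 11 with the 4 compared libraries alone (2 and 9), and to 50 with lower weights for the 3 h libraries (17 and 33). DESeq2 called 517 (196 higher), 347 of them shared, and edgeR 322, 310 of them shared, and 309 were called by limma, edgeR and DESeq2 alike. Leaving out 1 library at a time gave 75 to 407 calls, 31 to 147 higher and 44 to 273 lower. The lowest came without the first cho2 library at 3 h, and 180 or 198 passed without any one of the cho2 libraries from 1 h or YPL. Without both 3 h libraries numbered 2, 350 passed, 192 of them among the 356. The change from 1 h (322 calls) gave 525 with DESeq2, 138 with no rescaling, 184 with the 8 compared libraries alone, 213 with the weights and 74 to 423 with 1 library left out. The change from YPL (61 calls) gave 151 with DESeq2, 29 with the 8 compared libraries alone and 32 to 107 with 1 library left out. Fewer libraries leave fewer degrees of freedom, but the causes of these shifts were not tested.

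With the replicate number as a block 474 genes passed, with all 356 among them. The numbers are not known to pair cultures. Deviations of same-numbered 3 h libraries correlated at 0.42 between the strains, and over the 15 pairs of groups at -0.19 to 0.54.

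Of 256 named genes 110 passed. Over 24 alternatives their 2640 values kept the call 2039 times, lost it 601 times and reversed 0 times, and 11 of the 110 passed in every alternative run. The shallowest library, 1 of the WT pair at 3 h, held 3.17 M reads.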
